A study of Homo sapiens with 6 samples.

Results

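The plasminogen activator system is described here through 7 genes, *PLAU*, *PLAT*, *PLAUR*, *SERPINE2*, *SERPINB2*, *TFPI2* and *F3*, in PC-3 tumors of vehicle-treated and WCE-treated mice. WCE is a standardized extract of the herb *Wedelia chinensis*. The genes were found by their symbols in the deposited table of 24000 gene entries, each symbol matched 1 entry, and all 7 passed the filter on low values (a mean of at least 0.5 FPKM over the 6 tumors). PC-3 cells, an androgen-independent line from a human prostate cancer, carried a luciferase gene for imaging. It was grown as a xenograft in athymic nude mice, which lack T cells but keep their myeloid cells, vessels and stroma. The mice were males obtained at 6 weeks of age, and the study implanted the cells in the anterior prostate. The vehicle group and the WCE group each held 3 individual tumors, WCE was given by gavage, and the labels give a treatment of 10 weeks for both groups and no dose of WCE, while the study's text gives a different duration and more than 1 dose.

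Urokinase (*PLAU*) and tissue plasminogen activator (*PLAT*) are serine proteases that cut plasminogen into plasmin, which dissolves fibrin and degrades extracellular matrix. The urokinase receptor (*PLAUR*) holds urokinase on the cell surface, and serpins such as *SERPINB2* and *SERPINE2* trap the activators in inactive complexes. Tissue factor (*F3*) starts coagulation at the cell surface, and the Kunitz inhibitor TFPI2 blocks plasmin and the tissue factor complex. PC-3 cells are widely used as an invasive line rich in urokinase.

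The study followed NFκB signaling under WCE, and NFκB and AP-1 are known regulators of genes of this system. The 250 bases before each RefSeq transcript start (GRCh38.p14) were therefore searched for the 7-base AP-1 sequence TGANTCA and for the 10-base NFκB consensus on both strands. The consensus was GGGRNNYYCC, where R is A or G, Y is C or T and N is any base. Matches had to be exact, so sites that depart from these sequences were not counted. TGANTCA reads the same on either strand. Windows of 6 of the 7 genes were examined, 8 windows in all since *PLAU* and *SERPINE2* have more than 1 start, and *PLAT* was not examined. AP-1 matches were found in 4 genes and an NFκB match in 1 gene, *TFPI2*. Among all 35116 windows of this length, 6.57% held the AP-1 sequence and 9.96% the NFκB consensus. The windows with a match are printed 5′ to 3′ because they show where these letters lie, with the matches in capitals.
F3 (chr1:94541760-94542009, minus strand): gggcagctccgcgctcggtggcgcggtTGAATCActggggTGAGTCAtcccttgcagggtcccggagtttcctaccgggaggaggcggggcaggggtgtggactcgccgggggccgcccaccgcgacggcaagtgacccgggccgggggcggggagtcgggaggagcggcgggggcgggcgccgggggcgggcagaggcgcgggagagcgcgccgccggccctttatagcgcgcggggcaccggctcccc
SERPINB2 (chr18:63887455-63887704, plus strand): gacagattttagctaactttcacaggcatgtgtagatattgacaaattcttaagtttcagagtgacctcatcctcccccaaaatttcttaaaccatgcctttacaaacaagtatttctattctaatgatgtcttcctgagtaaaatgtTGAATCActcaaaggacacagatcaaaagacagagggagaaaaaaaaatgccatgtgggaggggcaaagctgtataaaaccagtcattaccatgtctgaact
PLAUR (chr19:43670170-43670419, minus strand): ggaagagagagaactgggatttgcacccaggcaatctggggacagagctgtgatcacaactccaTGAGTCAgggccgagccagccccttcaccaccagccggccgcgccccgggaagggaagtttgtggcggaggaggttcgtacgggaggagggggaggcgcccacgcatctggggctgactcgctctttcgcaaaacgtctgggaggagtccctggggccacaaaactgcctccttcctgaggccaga
TFPI2 (chr7:93890754-93891003, minus strand): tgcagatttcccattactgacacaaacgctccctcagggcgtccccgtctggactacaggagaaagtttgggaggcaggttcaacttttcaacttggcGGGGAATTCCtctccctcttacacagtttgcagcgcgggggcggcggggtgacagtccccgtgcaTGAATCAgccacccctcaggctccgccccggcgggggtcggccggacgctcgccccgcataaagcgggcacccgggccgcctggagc
Counted back from the transcript start, the first base of the AP-1 match lay at 223 and 210 in *F3*, at 186 in *PLAUR*, at 102 in *SERPINB2* and at 87 in *TFPI2*, and the NFκB match of *TFPI2* began at 152. No factor binding was measured, and the matches describe letters only.

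Expression was given in FPKM, fragments scaled to transcript length and library size, so levels can be compared between genes. Absolute depth is unknown. From the steps in low values, depth relative to vehicle replicate 3 was 25.0% in WCE replicate 1 and 64.8% to 85.2% in the other 4 tumors. Vehicle replicate 3 and WCE replicate 1 stood apart as a nearly identical pair. Over 1915 entries with a mean of at least 50 FPKM their median absolute log2 difference was 0.028, against 0.095 to 0.25 in the other 14 pairs of tumors. In this pair the largest difference among the 7 genes was 0.20 on the log2(FPKM + 1) scale, whereas it was 0.53 to 1.65 in the other pairs. Of 15805 entries above 0 in WCE replicate 1, 0 were listed at 0 in vehicle replicate 3, against 329 to 546 in each of the other 4 tumors. Whether these libraries come from separate tumors is not known, and n = 3 follows the labels. The pair carries different treatment labels, so the comparison of each of the 7 genes is given with all 6 tumors and, as 2 tumors against 2, without this pair. As markers of PC-3, the epithelial genes KRT8, KRT18 and EPCAM and the mesenchymal gene VIM together were at 1013 to 1236 FPKM in vehicle-treated tumors and 1075 to 1221 FPKM in WCE-treated tumors. The androgen-responsive markers KLK3 and KLK2 were listed at 0 in all 6 tumors. Within this sum EPCAM was at 185 to 305 FPKM in vehicle-treated and 122.9 to 180 FPKM in WCE-treated tumors (log2 fold change −0.73, unadjusted p = 0.00889 by limma, and −1.08 without the pair). VIM was at 275 to 411 and 378 to 546 FPKM (log2 fold change 0.41, unadjusted p = 0.0673 by limma). Without the pair the log2 fold change of VIM was 0.63 (unadjusted p = 0.0304 by limma). In that comparison 18.4% of all entries had an unadjusted p under 0.05. With all 6 tumors the adjusted p of EPCAM and of VIM was 0.623 by limma. KRT8 and KRT18 had log2 fold changes of 0.05 and 0.10.

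*PLAU* was by far the highest of the 7 genes, at a mean of 1278 FPKM over the 6 tumors, which ranked it 65 among all 24000 entries. *TFPI2* followed at 101 FPKM, *PLAUR* at 88.2, *PLAT* at 45.8, *SERPINE2* at 43.0, *SERPINB2* at 14.8 and *F3* at 5.61 FPKM. *PLAU* was 12.6 times the level of *TFPI2*, with no overlap between tumors. *SERPINE2* was 2.91 times *SERPINB2*, again with no overlap. For the other neighbors in this order the ranges over tumors overlapped. *PLAUR* nevertheless exceeded *PLAT*, and *SERPINB2* exceeded *F3*, in 6 of 6 tumors. *PLAT* exceeded *SERPINE2* in 3 of 6 tumors and *TFPI2* exceeded *PLAUR* in 5 of 6, so these latter neighbors were not separated by the spread between tumors.

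The 2 groups were tested with limma on log2(FPKM + 1) for 13287 entries, and p-values were adjusted over all of these (Benjamini-Hochberg). Differences of low genes are understated on this scale. Of the 7 genes, 4 were lower and 3 higher in WCE-treated tumors, where 51.4% of all entries tested were lower. The median log2 fold change of the 7 genes was −0.16, against −0.0063 over all entries tested. *SERPINB2* was the 1 gene of the 7 with an unadjusted p under 0.05, where 7.10% of all entries had one, 3.33% in the lower and 3.78% in the higher direction. It was also the 1 gene of the 7 whose groups did not overlap, where 12.8% of entries did not, 6.40% with WCE-treated tumors lower. None of the 7 had an adjusted p under 0.05 (lowest 0.623 by limma), a threshold passed by 0.00753% of entries.

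**Figure D1:**
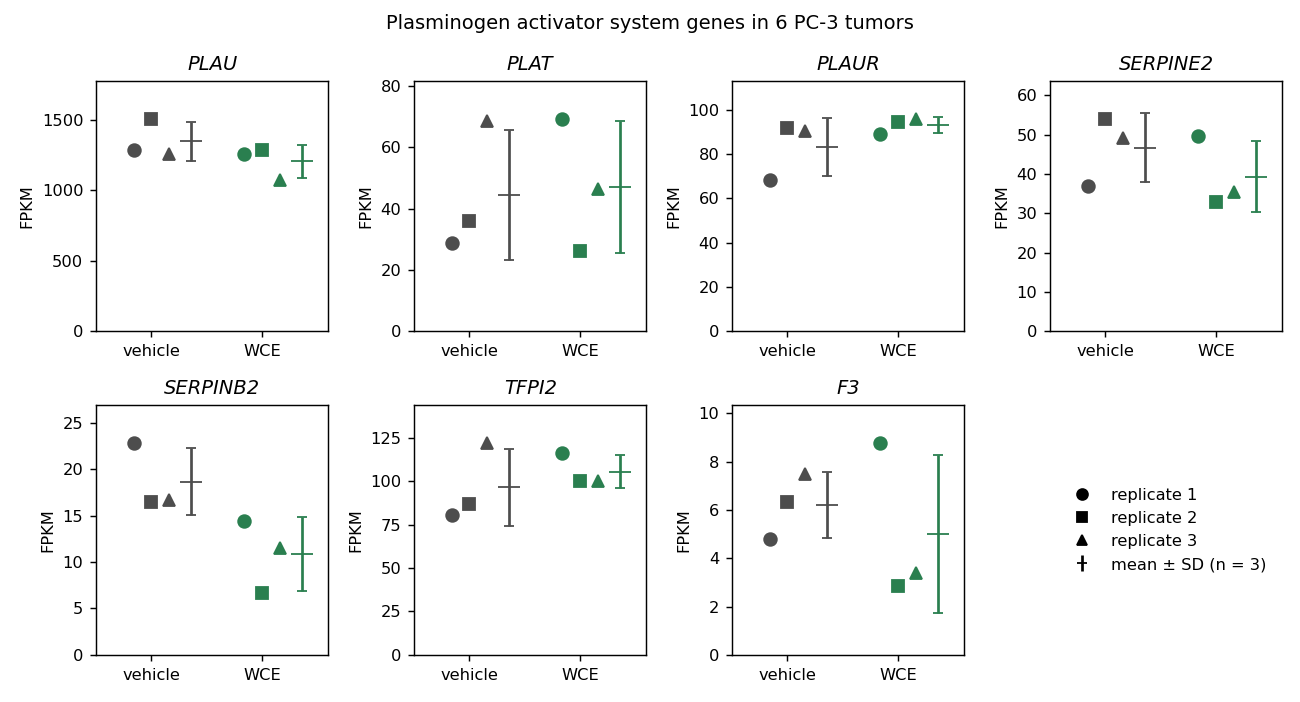
FPKM (vertical axis, from 0) of the 7 genes in each vehicle-treated (gray) and WCE-treated (green) tumor, with marker shapes for the replicate number and bars for mean ± SD (n = 3). In *SERPINB2* the WCE-treated tumors lie at 6.61 to 14.5 FPKM, below the vehicle-treated tumors at 16.5 to 22.8 FPKM, and in the other 6 genes the groups overlap.

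*PLAU*, the main activator of pericellular plasminogen, is listed on chromosome 10 from 75669727 to 75682535 (hg19 is the human build named in the submitters' processing notes). It was at 1285, 1506 and 1256 FPKM in vehicle replicates 1 to 3 and at 1259, 1285 and 1074 FPKM in WCE replicates 1 to 3. Vehicle replicate 2 was the highest and WCE replicate 3 the lowest tumor, and the other 4 tumors lay within a narrow band that both groups shared. Means were 1349 ± 137 FPKM for vehicle and 1206 ± 115 FPKM for WCE (SD, n = 3 each). On the log2 scale the difference was −0.16 (95% confidence interval −0.46 to 0.14, unadjusted p = 0.247 and adjusted p = 0.685 by limma), and −0.24 without the nearly identical pair. *C10orf55* is listed at the same locus, at 4.01 to 7.49 FPKM, and how reads were divided between these entries is not known.

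*PLAT*, the activator that works best on fibrin, is listed on chromosome 8 from 42032236 to 42065194. It was at 28.7, 36.0 and 68.5 FPKM in vehicle replicates 1 to 3 and at 69.1, 26.0 and 46.2 FPKM in WCE replicates 1 to 3. The nearly identical pair held its highest values, and the groups overlapped over almost their whole range. WCE-treated tumors differed by a log2 fold change of 0.08, with a wide interval from −0.86 to 1.01 (adjusted p = 0.961 by limma). Its direction depended on single tumors, at −0.25 without WCE replicate 1 and −0.18 without vehicle replicate 1. It was −0.023 when vehicle replicate 2 was left out and 0.44 when WCE replicate 2 was. Without the pair it was 0.11.

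*PLAU* stood well above *PLAT* in each tumor, although by a factor that varied. The ratio of their FPKM values was 44.7, 41.8 and 18.3 in vehicle replicates 1 to 3 and 18.2, 49.4 and 23.2 in WCE replicates 1 to 3. The spread of this ratio came with *PLAT*, which varied 2.66 times from lowest to highest tumor, against 1.40 times for *PLAU*.

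*PLAUR* encodes the surface receptor that localizes urokinase and is listed on chromosome 19 from 44150247 to 44174498. It was at 68.2, 91.5 and 90.1 FPKM in vehicle replicates 1 to 3 and at 89.2, 94.3 and 95.7 FPKM in WCE replicates 1 to 3. Vehicle replicate 1 stood below the other 5 tumors, which lay close together. For *PLAUR* the log2 fold change was 0.17 (95% confidence interval −0.13 to 0.47, unadjusted p = 0.229 and adjusted p = 0.674 by limma). It was 0.034 without vehicle replicate 1 and 0.26 without the nearly identical pair. The ratio of *PLAU* to *PLAUR* was 18.8, 16.5 and 13.9 in vehicle replicates 1 to 3 and 14.1, 13.6 and 11.2 in WCE replicates 1 to 3. These ligand to receptor ratios overlapped between the groups through the nearly identical pair, and no test was made of them.

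**Figure D2:**
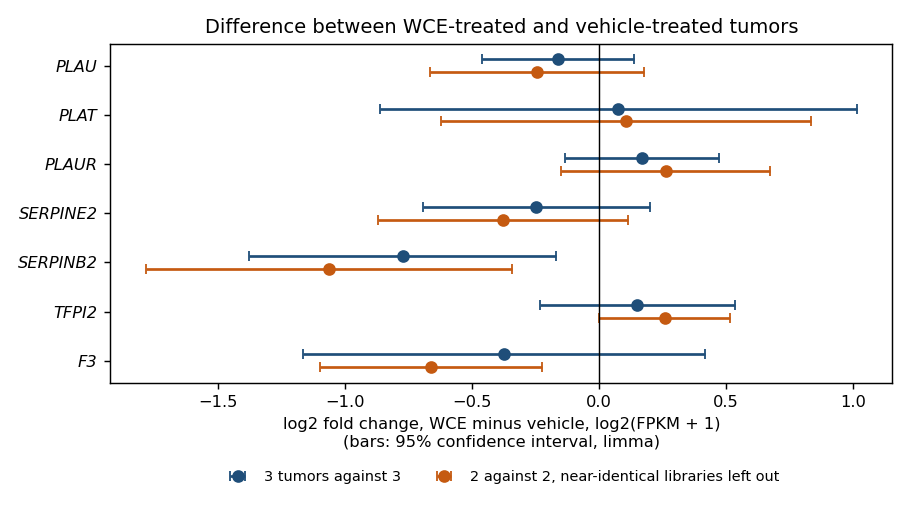
Log2 fold change of each gene on the log2(FPKM + 1) scale (horizontal axis) with its 95% confidence interval from limma, for 3 tumors against 3 (blue) and for 2 against 2 without vehicle replicate 3 and WCE replicate 1 (orange). The interval of *SERPINB2* lies below 0 in both, that of *F3* in the comparison of 2 with 2, and that of *TFPI2* lies above 0 in that comparison with its lower end next to 0.

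The inhibitors differed among themselves. *SERPINB2*, or plasminogen activator inhibitor 2, inhibits urokinase and tissue plasminogen activator and stays largely inside cells. It is listed on chromosome 18 from 61554939 to 61571124. *SERPINB2* was at 22.8, 16.5 and 16.7 FPKM in vehicle replicates 1 to 3 and 14.5, 6.61 and 11.5 FPKM in WCE replicates 1 to 3. Each WCE-treated tumor was below each vehicle-treated tumor, and WCE replicate 2 was the lowest. The groups came closest at WCE replicate 1 (14.5 FPKM) and vehicle replicate 2 (16.5 FPKM). Vehicle replicate 3, nearly identical to WCE replicate 1, was at 16.7 FPKM, above vehicle replicate 2. With all 6 tumors the lack of overlap therefore rested on the difference within this pair. The group means were 18.7 ± 3.60 and 10.9 ± 3.97 FPKM (SD, n = 3 each), a ratio of 0.583. This was −0.77 as a log2 fold change (SE 0.26, 95% confidence interval −1.38 to −0.17), with an unadjusted p of 0.0187 and an adjusted p of 0.623 by limma. The exact permutation test gave a two-sided p of 0.1, the smallest that 3 tumors against 3 allow, and 0.3 to 0.9 for the other 6 genes.

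How far *SERPINB2* differed rested on single tumors, although its direction did not. Its log2 fold change was −0.48 without WCE replicate 2 and −0.99 without WCE replicate 1, and −1.06 without the nearly identical pair (unadjusted p = 0.0124 by limma). In that comparison of 2 with 2, 18.4% of all entries had an unadjusted p under 0.05. Without vehicle replicate 1 the unadjusted p was 0.0703 by limma. Between the nearly identical libraries (WCE minus vehicle) *SERPINB2* differed by −0.19 and *F3*, the other low gene, by 0.20, and WCE replicate 1 was the shallowest library.

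*SERPINE2*, or protease nexin 1, inhibits thrombin, urokinase and plasmin and binds to matrix. It is listed on chromosome 2 from 224839765 to 224904036 with 2 transcription starts. It was at 37.1, 53.9 and 49.2 FPKM in vehicle replicates 1 to 3 and at 49.7, 32.9 and 35.5 FPKM in WCE replicates 1 to 3. WCE replicates 2 and 3 were the lowest tumors, and WCE replicate 1 lay with the higher vehicle-treated tumors. The difference was −0.25 in log2 (95% confidence interval −0.69 to 0.20, unadjusted p = 0.234 and adjusted p = 0.678 by limma). It was −0.42 without WCE replicate 1, with an unadjusted p of 0.0414 by limma, −0.13 without WCE replicate 2 and −0.38 without the nearly identical pair. When WCE replicate 1 was left out, 15.3% of all entries had an unadjusted p under 0.05, and the adjusted p of *SERPINE2* was 0.305 by limma.

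*SERPINE2* was above *SERPINB2* in each tumor. The ratio of *SERPINE2* to *SERPINB2* was 1.62, 3.27 and 2.95 in vehicle replicates 1 to 3 and 3.43, 4.98 and 3.07 in WCE replicates 1 to 3. The lowest ratio was in vehicle replicate 1 and the highest in WCE replicate 2, and the groups overlapped.

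*TFPI2*, a secreted Kunitz inhibitor of plasmin that is laid down in the matrix, is listed on chromosome 7 from 93515745 to 93520065. It was at 80.6, 86.6 and 122 FPKM in vehicle replicates 1 to 3 and at 116, 99.97 and 100.3 FPKM in WCE replicates 1 to 3. The nearly identical pair held its highest values in either group, and vehicle replicates 1 and 2 the lowest. *TFPI2* had a log2 fold change of 0.15 (95% confidence interval −0.23 to 0.53, unadjusted p = 0.391 and adjusted p = 0.769 by limma). It was 0.033 without vehicle replicate 1, 0.33 without vehicle replicate 3, with an unadjusted p of 0.0249, and 0.26 without the pair (unadjusted p = 0.0498 by limma). When vehicle replicate 3 was left out, 13.3% of all entries had an unadjusted p under 0.05, and the adjusted p of *TFPI2* was 0.332 by limma.

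*F3* encodes tissue factor, the cell surface receptor that starts coagulation, and is listed on chromosome 1 from 94994732 to 95007413. It was at 4.78, 6.34 and 7.50 FPKM in vehicle replicates 1 to 3 and at 8.77, 2.86 and 3.41 FPKM in WCE replicates 1 to 3. WCE replicate 1 was the highest of the 6 tumors, and the other WCE-treated tumors were the lowest. *F3* had a log2 fold change of −0.37 with an interval from −1.16 to 0.42 (unadjusted p = 0.305 and adjusted p = 0.726 by limma). It was −0.79 without WCE replicate 1, with an unadjusted p of 0.00379 by limma, and −0.66 without the pair, with an unadjusted p of 0.0112. When WCE replicate 1 was left out, 15.3% of all entries had an unadjusted p under 0.05, and the adjusted p of *F3* was 0.167 by limma. Without WCE replicate 2 the log2 fold change of *F3* was −0.12. The ratio of *TFPI2* to *F3* was 16.8, 13.7 and 16.3 in vehicle replicates 1 to 3 and 13.3, 35.0 and 29.4 in WCE replicates 1 to 3.

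Without the nearly identical pair, the groups did not overlap in 6 of the 7 genes, *PLAT* being the exception. With 2 tumors against 2, this was the case for 53.5% of all entries. In that comparison *SERPINB2*, *F3* and *TFPI2*, 3 of the 7 genes, had an unadjusted p under 0.05, against 18.4% of all entries, and the lowest adjusted p of the 7 genes was 0.197 by limma.

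**Figure D3:**
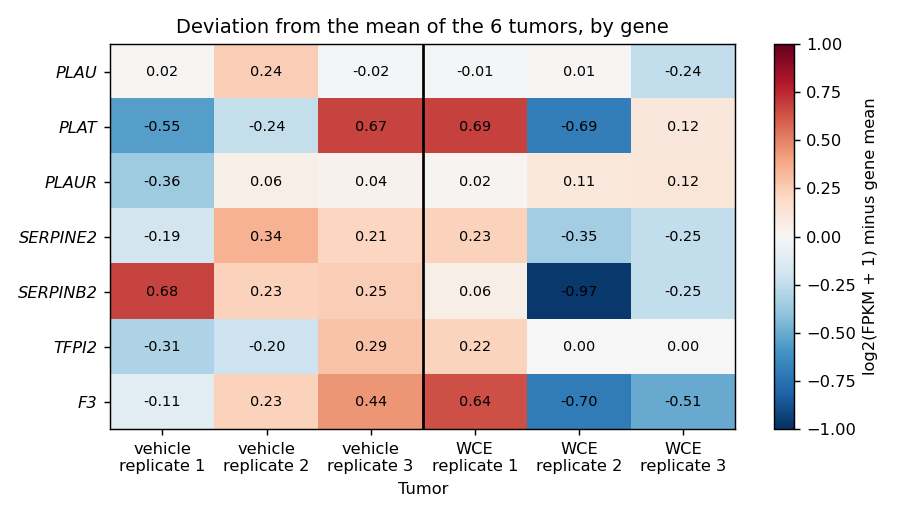
Deviation of each gene from its own mean over the 6 tumors on the log2(FPKM + 1) scale, with tumors in columns (vehicle left of the line, WCE right of it) and higher values in red. Vehicle replicate 3 and WCE replicate 1 have nearly the same column, and WCE replicate 2 has the lowest value of *PLAT* (−0.69), *SERPINE2* (−0.35), *SERPINB2* (−0.97) and *F3* (−0.70).

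Across tumors the genes did not move as one group. WCE replicate 2 held the lowest *PLAT*, *SERPINE2*, *SERPINB2* and *F3*, but its *PLAU* and *TFPI2* were near their means over the 6 tumors. Vehicle replicate 1 was lowest in *PLAUR* and *TFPI2* and highest in *SERPINB2*. Fibroblast markers, with 6 of 6 genes listed and none at 0 throughout, summed to 40.9 to 58.2 FPKM in vehicle-treated tumors and to 13.6 to 57.7 FPKM in WCE-treated tumors, most of it COL1A1, and the lowest sum was that of WCE replicate 2. COL1A2, DCN and PDGFRB were under 1 FPKM in each tumor, and how reads of the mouse host were handled is not known. In these bulk samples fewer cells of a type and less RNA per cell cannot be told apart, and the part of host cells in the result was not tested. Endothelial markers (5 of 5 listed) summed to 1.20 to 3.37 FPKM in vehicle-treated and 3.21 to 7.60 FPKM in WCE-treated tumors, with CDH5, TEK and VWF under 1 FPKM in each. PECAM1 had means of 2.14 and 2.30 FPKM, and KDR was at 0.216 to 0.529 and 0.559 to 5.12 FPKM. The KDR groups did not overlap, as in 12.8% of all entries tested. This gap lay between the nearly identical libraries, both under 1 FPKM for KDR, and WCE replicate 1 was the shallowest library. KDR had an unadjusted p of 0.0345 and an adjusted p of 0.623 by limma. Of all entries, 7.10% had an unadjusted p under 0.05. Myeloid markers (5 of 5 listed) summed to 25.8 to 41.0 and 39.8 to 44.4 FPKM, nearly all of it from CD68, while PTPRC, ITGAM, CSF1R and LYZ were each under 1 FPKM in each tumor.

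In all, 5 lists of related genes were also examined, with 87 genes, of which 86 were listed and 55 passed the filter. Of these 55, 1 gene had an unadjusted p under 0.05 with a lower level in WCE-treated tumors and 2 with a higher level, or 5.45% against 7.10% of all entries. None passed the adjustment (lowest adjusted p 0.623 by limma). Their median log2 fold change was 0.011. Without the nearly identical pair, 15 of the 55 genes had an unadjusted p under 0.05, against 18.4% of all entries, and in the order of the lists given here these were 2 of 7, 3 of 11, 3 of 14, 5 of 13 and 2 of 10. The list medians were then 0.092, −0.37, −0.0069, 0.030 and 0.24. Plasminogen itself (PLG) was at 0.0137 FPKM in vehicle replicate 3 and listed at 0 in the other 5 tumors.

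Among plasminogen receptors and genes of fibrinolysis, 0 of 7 tested genes had an unadjusted p under 0.05. *ANXA2*, which with S100A10 forms a surface receptor for plasminogen and its activator, had means of 1061 ± 72.4 FPKM for vehicle and 1105 ± 32.3 FPKM for WCE (SD, n = 3 each). *ENO1*, a glycolytic enzyme that also binds plasminogen at the cell surface, was at 815 ± 127 and 991 ± 126 FPKM, a log2 fold change of 0.29 (unadjusted p = 0.104 by limma). In RNA both genes were thus of the same order as *PLAU*, while RNA of plasminogen itself was near 0 in these tumors. Plasminogen protein was not measured in these data.

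Of the other protease inhibitors, 0 of 11 tested had an unadjusted p under 0.05, 8 were lower and 3 higher in WCE-treated tumors, and the median log2 fold change was −0.24. *SPINT2*, a Kunitz inhibitor of serine proteases at the cell surface, was at 278 ± 37.4 and 238 ± 18.7 FPKM (SD, n = 3 each). *SERPINB6*, an intracellular serpin, was at 83.2 ± 7.23 and 83.7 ± 2.13 FPKM.

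Among partners and clearance receptors of the urokinase receptor, 1 of 14 tested genes had an unadjusted p under 0.05. This was *LRP1*, the endocytic receptor that clears complexes of activators with their serpins. It was at 7.46, 8.67 and 13.2 FPKM in vehicle replicates 1 to 3 and at 13.1, 17.6 and 19.5 FPKM in WCE replicates 1 to 3. The groups met only at the nearly identical pair, and the difference in log2 was 0.74 (SE 0.22), with an unadjusted p of 0.0107 and an adjusted p of 0.623 by limma. It was 1.11 without the pair. The integrin subunits *ITGB1*, at 804 ± 81.5 and 776 ± 23.3 FPKM (SD, n = 3 each), and *ITGA3*, at 265 ± 51.4 and 257 ± 66.4 FPKM, were the highest of this list.

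Among growth factors and proteases linked to plasmin and urokinase, 1 of 13 tested genes had an unadjusted p under 0.05. *ST14*, or matriptase, is a membrane serine protease that can activate pro-urokinase. It was at 95.03, 73.8 and 73.8 FPKM in vehicle replicates 1 to 3 and at 74.4, 35.5 and 49.4 FPKM in WCE replicates 1 to 3, which is −0.65 in log2 (SE 0.25), with an unadjusted p of 0.0331 and an adjusted p of 0.623 by limma. Its groups touched at the nearly identical pair, and without it the log2 fold change was −0.98. *MMP14*, a membrane metalloprotease, was at 210 ± 37.9 and 222 ± 24.1 FPKM (SD, n = 3 each). *LTBP1*, which anchors latent TGFβ, was at 76.4 ± 11.3 and 90.9 ± 18.0 FPKM.

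In the coagulation list, 1 of 10 tested genes had an unadjusted p under 0.05 and the median log2 fold change was 0.20. This was *TBXAS1*, which encodes thromboxane synthase and not a coagulation factor. It was at 7.75, 9.96 and 12.6 FPKM in vehicle replicates 1 to 3 and at 14.01, 20.4 and 17.9 FPKM in WCE replicates 1 to 3. Its groups did not overlap, as in 12.8% of all entries tested, and the gap lay between the nearly identical libraries. The difference was 0.74 in log2 (SE 0.19), with an unadjusted p of 0.00536 and an adjusted p of 0.623 by limma. It was 1.04 without the nearly identical pair. *F2RL1*, the protease-activated receptor 2 that senses the tissue factor complex, was at 80.6 ± 7.90 and 107 ± 27.5 FPKM (SD, n = 3 each). *TFPI*, the main inhibitor of tissue factor, was at 54.3 ± 26.3 and 74.5 ± 26.9 FPKM. *F7*, the partner of tissue factor, was listed at 0 in all 6 tumors.

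**Figure D4:**
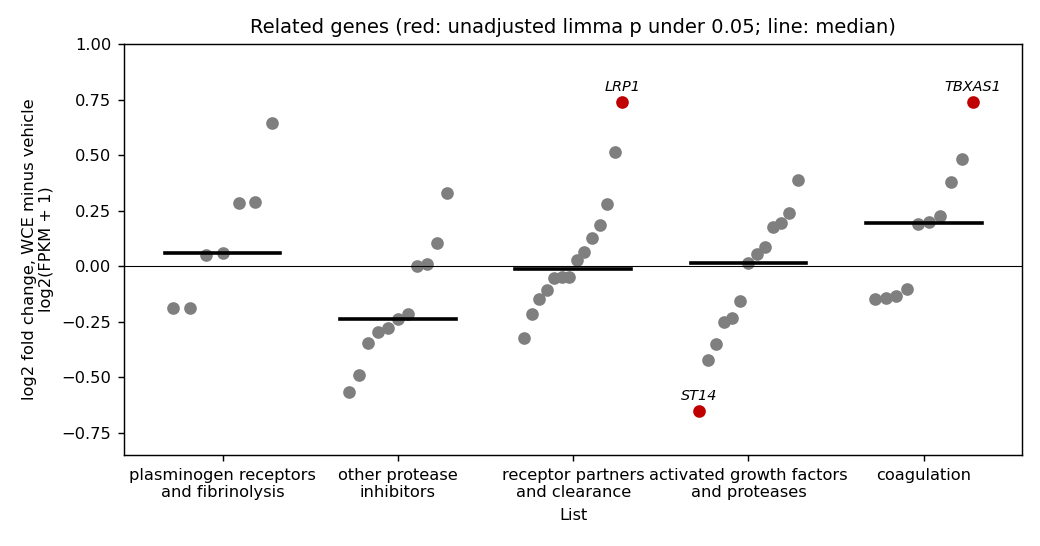
Log2 fold change on the log2(FPKM + 1) scale (vertical axis) of the 55 tested genes in the 5 related lists, with a line at the median of each list and red points for an unadjusted limma p under 0.05. The red points are *LRP1* (0.74), *ST14* (−0.65) and *TBXAS1* (0.74), and the other 52 genes lie on both sides of 0.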

How the data were processed

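The members and the related lists were chosen with earlier results of these data known. The authors deposited FPKM values per gene entry for 6 tumors. Per the labels, libraries were strand-specific mRNA libraries, and the processing notes name TopHat2 2.0.13, Cufflinks, hg19 and mm10 without their roles. Annotation, strand setting and scaling between tumors are not given in the sources used here. Columns were matched by the sample labels.

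FPKM values were changed to log2(FPKM + 1). Entries with a mean of at least 0.5 FPKM were compared with limma 3.58.1 (R 4.3.3) with a mean-variance trend, two-sided, with Benjamini-Hochberg adjustment over 13287 entries, after tests on simulated data. Loci are counted from 1. Promoter windows came from RefSeq (GRCh38.p14), and 6 of 7 genes were used. Relative depth was the commonest ratio of low values to vehicle replicate 3, in Python 3.11.15 (numpy 2.4.6, pandas 2.3.3). Figures used matplotlib 3.10.9.

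From each related list, genes with an unadjusted p under 0.05 and the 2 highest were named. KRT8, VWF and ITGAM each stand in a related and a marker list. PLG and F7 were chosen by name with their values known. The 3 entries closest to each member were taken by Pearson r, and 1 of them is not reported here. P-values measure the spread between tumors as labelled. Where both are kept, vehicle replicate 3 and WCE replicate 1 are counted as separate tumors, which is not known. The alternatives were the pseudocount, filter, scaling, trend, moderation, weights, replicate block, each tumor left out, and the nearly identical pair left out.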

Additional observations from a re-analysis of the deposited data

How the results depend on the processing

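Of the 7 genes, 6 kept their direction in all 17 alternatives. The log2 fold change of *PLAT* turned to −0.25 without WCE replicate 1, to −0.18 without vehicle replicate 1 and to −0.023 when vehicle replicate 2 was left out, with a range of −0.25 to 0.44 when each tumor was left out. None of the 7 had an adjusted p under 0.05 in any alternative. Leave-one-out ranges were −0.21 to −0.080 for *PLAU*, 0.034 to 0.24 for *PLAUR*, −0.42 to −0.13 for *SERPINE2*, −0.99 to −0.48 for *SERPINB2*, −0.79 to −0.12 for *F3* and 0.033 to 0.33 for *TFPI2*. The adjusted p of *SERPINB2* was 0.139 to 0.964 over the alternatives. Its interval excluded 0 except with the unmoderated test and without vehicle replicate 1.

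The count of the 7 genes with an unadjusted p under 0.05 was 1. It was 0 with the unmoderated test, 4 with limma array weights (*PLAU*, *SERPINE2*, *SERPINB2* and *F3*, with WCE replicate 3 weighted 4.00) and 3 without the nearly identical pair, and 0 (without vehicle replicate 1) to 3 (without WCE replicate 1) when each tumor was left out. In the same order the count over all entries, 944, became 593, 3201, 2449 and 219 to 2033, and that over the related lists, 3, became 1, 19, 15 and 2 to 14. Entries with an adjusted p under 0.05 numbered 1, with 0 for the unmoderated test, 5 without the pair and 1 to 7 when each tumor was left out. The cause was not tested. When 1 group is left with 2 tumors, the spread used is shared by both groups and comes from the fit to the tumors kept.

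With the replicate block, 6 related genes, 1 of the 7 genes and 1049 entries had an unadjusted p under 0.05. No label says that a number marks a shared animal, batch or day, and same-numbered tumors had correlations of −0.24, 0.16 and −0.093 in their deviations from the group means, with 2 of 6 tumors closest to their own number. Absolute depth is unknown, and WCE replicate 1 was the shallowest library.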

Other observations

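For each of the 7 genes, the entries with the most similar pattern over the 6 tumors, up to 3 for each gene, were taken from 3019 or 3020 entries with a mean of at least 5 FPKM and an SD of at least 0.2 on the log2(FPKM + 1) scale. Pearson r is given as a description, since the nearly identical pair counts as 2 of the 6 points and between 18 and 176 entries had r above 0.9 with a given gene. *PLAU* was closest to *CYR61* (r = 0.99), which encodes a matricellular protein, then to *OXTR* and *MITD1*. *TFPI2* was closest to *EFNA1* and *C8orf58* (r = 0.98 each). *PLAUR* was closest to *GOLGA8A*, *APOBEC3G* and *TMPRSS2*, and *PLAT* to *MTSS1*, *DUSP16* and *TBC1D20*. *SERPINE2* was closest to *MMP13* (r = 0.995), a collagenase, to *TRIM14* and to *KLK6*, a secreted serine protease. *SERPINB2* was closest to *BID*, *KYNU* and *SERINC5*. *F3* was closest to *RHOB*, a small GTPase, to *ENDOD1* and to *ATP1B1*. Among the 7 genes themselves, *SERPINE2* and *F3* were the most alike pair, with r = 0.91 and rho = 0.83 over the 6 tumors, and r = 0.90 when the nearly identical pair was averaged into 1 point.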
